A study of Mus musculus with 8 samples.

Results

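The Wnt pathway genes described here are the ligands, receptors, secreted antagonists and core signalling components that the array names as Wnt, Fzd, Sfrp or Dkk followed by a number, or as Lrp5, Lrp6, Axin1, Axin2, Apc, Ctnnb1, Tcf7, Tcf7l1, Tcf7l2, Lef1, Wif1, Nkd1 or Ror2. The rule uses only the gene name printed on the array, and it took 49 of the 27599 genes on the array, read by 76 of its 41174 probes. Of these 49 genes, 33 were measured, meaning that a probe was well above background in all 4 samples of a group, and 16071 genes in all met that condition. Tcf7l1 is on the array under an older name and so lies outside the 49; its value is given with the other TCF/LEF factors.

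Wnt proteins are secreted, lipid-modified ligands that bind Frizzled receptors at the cell surface together with co-receptors such as Lrp5, Lrp6 or Ror2. In the canonical branch, ligand binding stops a destruction complex of Axin, Apc and kinases from degrading beta-catenin, which then enters the nucleus and activates genes with TCF/LEF factors. Other branches act on cell polarity, the cytoskeleton and calcium, and in the kidney Wnt signals from and to the collecting duct are known for nephron induction, duct branching and growth of the medulla.

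The cells were IMCD3, an established mouse kidney line derived from inner medullary collecting duct, and the series title places them in a search for effectors of the ciliogenesis factor FOXJ1. Starved cells spent 48 h in medium lacking fetal calf serum, which the labels give as a way to induce cilia; unstarved cells grew with 10% serum, were split 1:10 on the preceding day and were still subconfluent. Serum and cell density therefore differ together between the groups and cannot be told apart. Each group has 4 deposited samples from 2 dishes, the 2 replicates, and each replicate was hybridised on 2 arrays, with a starved and an unstarved sample side by side on each of the 4 arrays.

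Arrays 1 and 3 held replicate 1 with starved RNA in Cy5, and arrays 2 and 4 held replicate 2 with starved RNA in Cy3, so replicate and dye orientation cannot be told apart. Between 59.6% and 62.8% of probes were well above background in a sample, and the precision is limited by the number of replicates. Of the kidney collecting duct and epithelial markers listed for this work, 22 of 27 were measured, among them Aqp2, Pax2, Pax8, Hoxb7, Cdh1 and Epcam. Scnn1b, Elf5, Hoxd10, Calb1 and Ret were not measured. Not well above background were 6 of 9 fibroblast markers (Pdgfra, Pdgfrb, Col3a1, Dcn, Lum and Thy1) and 9 of 10 endothelial markers, Pecam1 and Cdh5 among them. Of the 3 fibroblast markers measured, Col1a1 was called lower (log2 ratio -1.01) and Col1a2 was not called. Postn was called lower with no starved sample above background (at least 1.91-fold). Sums of linear intensity take every marker of a list, those not well above background included. Over all 9 fibroblast markers the sum was 1559 to 1690 in unstarved and 1191 to 1260 in starved samples. Over all 10 endothelial markers it was 8064 to 8545 in unstarved and 7883 to 8877 in starved samples. Of 10 leukocyte markers 7 were measured, with Csf1r, Aif1 and Cd14 called higher and Ptprc called lower. The sum over all 10 was 8841 to 9198 in unstarved and 16952 to 19349 in starved samples. For all 27 collecting duct and epithelial markers the sum was 877891 to 922476 in unstarved and 700901 to 789744 in starved samples. The part of these shifts in the results below was not tested.

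The quantity compared is the log2 ratio of starved over unstarved signal within an array. Each ratio below is the mean of 2 replicates with the moderated SE of limma, and a gene is called higher or lower where the adjusted p, taken over all 16071 genes, is below 0.05. By this rule 15 of the 33 measured Wnt pathway genes (45.5%) were called, against 31.4% of all measured genes. The members split into 4 called higher (12.1%, against 18.1% of all genes) and 11 called lower (33.3%, against 13.4% of all genes). Wnt5a, 1 of the 11, was measured through its unstarved samples alone. A change of at least 2-fold was called for 5 members (15.2%), against 701 of all genes (4.36%). In each of the 15 called genes the 4 arrays gave 1 sign and the 4 starved levels lay wholly above or below the 4 unstarved levels, as they did in 97.8% of all called genes. Levels did not overlap in 19 of the 33 measured members, against 51.8% of all measured genes. The median ratio was -0.04 over the 33 members and 0.01 over all measured genes. With each array centred on its median in place of the loess curve, 249 of all genes and only Wnt2 and Wnt5b of the members were called.

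**Figure D1:**
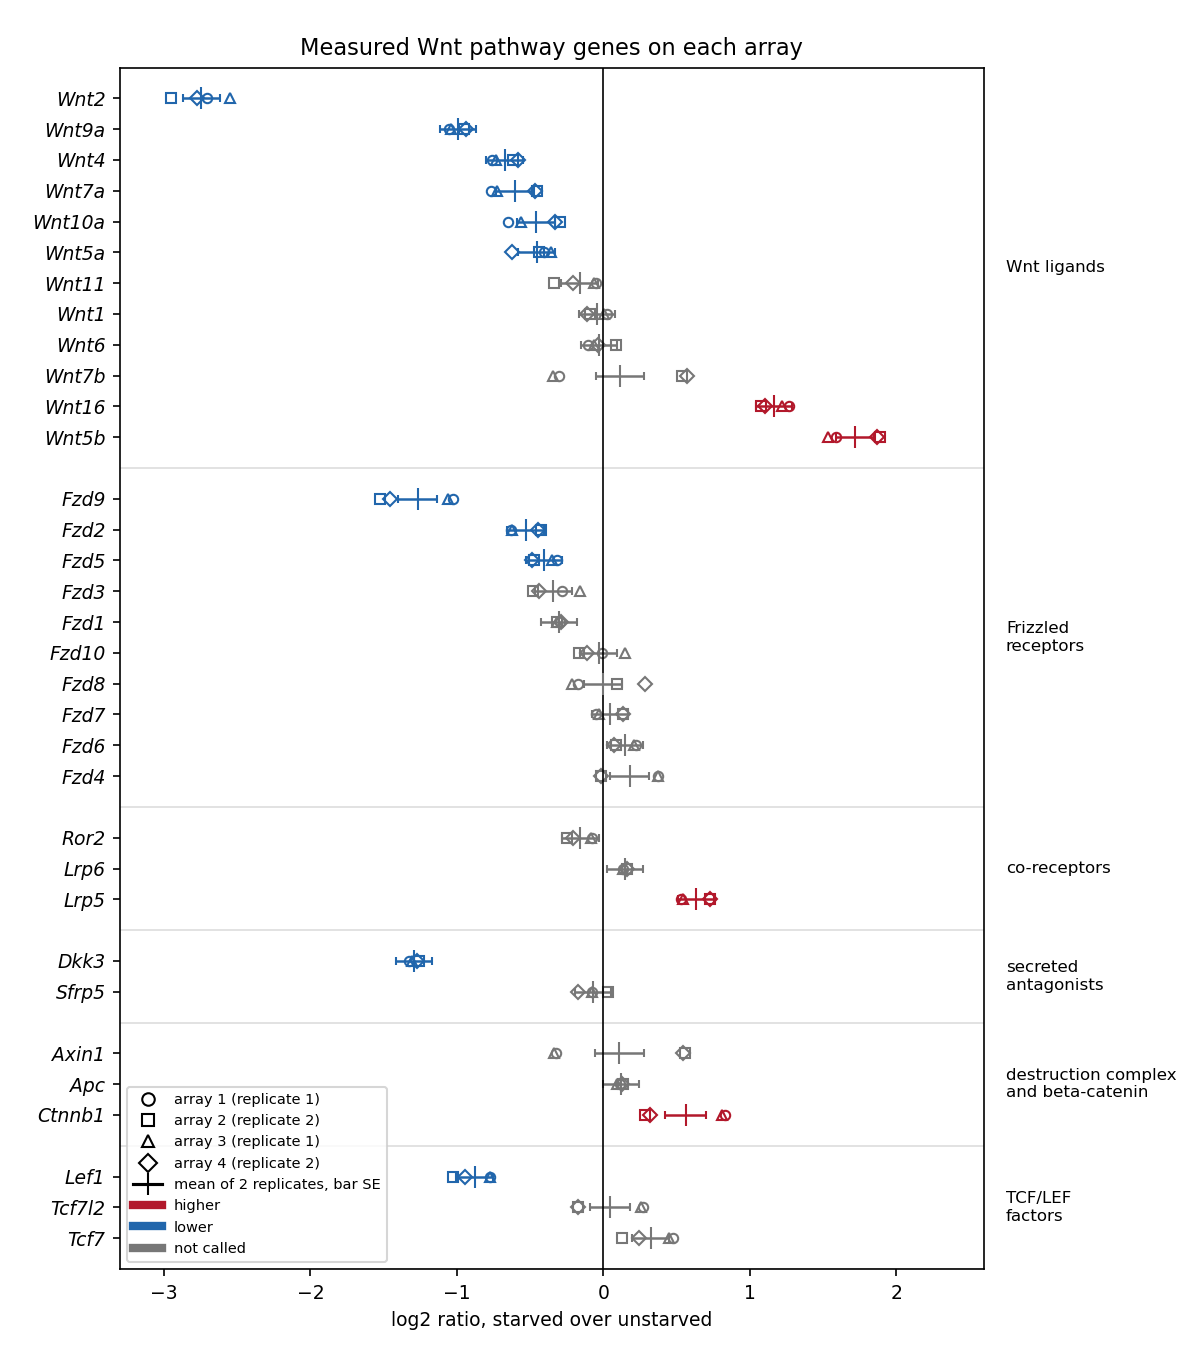
Log2 ratio of starved over unstarved (x axis) for the 33 measured Wnt pathway genes (y axis, grouped by role). Open symbols are the 4 arrays, the vertical tick is the mean of 2 replicates and the bar its SE; colour gives the call. Wnt2 lies farthest to the left at -2.74 and Wnt5b farthest to the right at 1.72.

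The probes that read the 5 genes with called changes of at least 2-fold are shown because each of these values rests on a single short stretch of the transcript, except for Wnt5b, which has a pair of probes. The first 30 of the 60 bases are given, in lower case and 5′ to 3′ in the sense of the gene. Positions are those of the whole probe on mm8, the build of the array design.
Wnt2, chr6:17939284-17939343, minus strand: aaagagtaagcaagggctttaactaagtga
Wnt5b, brighter probe, chr6:119398613-119398672, minus strand: ggaagatgagtgtctgtgaccctggccatt
Wnt5b, other probe, chr6:119405921-119405980, minus strand: gtgagaagaactttgccaagggatcggagg
Wnt16, chr6:22241090-22241149, plus strand: agtacggcatgtggttcagcagaaagtttc
Fzd9, chr5:135533572-135533631, minus strand: tatttaatgatgtaatttattgtggcattt
Dkk3, chr7:111908495-111908554, minus strand: gaatgaaatttgcaaagtcgcttagcaaca
The exon or untranslated region under each probe was not analysed here.

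Among the Wnt ligands, 12 of 19 were measured, of which 6 were called lower and 2 higher in starved cells. That is 50% lower and 16.7% higher, against 13.4% and 18.1% of all measured genes. The median ratio of the ligands was -0.31. Among the 6 is Wnt5a, which was measured through its unstarved samples alone. A filter in both groups leaves Wnt5a out and gave a smaller median fall, stated in the section on processing.

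Wnt2, a ligand of the canonical branch best known from lung development, fell the most of all 33 members. In log2 intensity its level was 11.09, 11.27, 10.90 and 11.30 in the unstarved samples of arrays 1 to 4, and 8.38, 8.32, 8.35 and 8.52 in the starved samples. The groups were separated by more than 2 log2 units with no overlap. In RNA from a whole culture, fewer cells making a transcript and less of it per cell cannot be told apart, here and in all results that follow. The log2 ratio was -2.74 (SE 0.126, adjusted p = 2.04e-10 by limma), a 6.70-fold lower signal, and the 4 arrays gave -2.70, -2.95, -2.55 and -2.77. This call remained in all 18 alternative settings that give a test, with ratios from -3.16 to -2.70. Among the 18 are other array pairings and a dye term, which take only the gap between arrays of the same replicate as error. Most of all measured genes were called at those settings, so a call kept there carries little weight, here and for Wnt5b below.

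Wnt5b and Wnt16 rose. Wnt5b, a ligand mainly of the non-canonical branch, had log2 intensities of 10.57, 10.53, 10.60 and 10.70 in unstarved and 12.16, 12.41, 12.14 and 12.57 in starved samples of arrays 1 to 4. Every starved sample was well above every unstarved one. The arrays gave log2 ratios of 1.59, 1.89, 1.54 and 1.87, with a mean of 1.72 (SE 0.129, adjusted p = 3.76e-08 by limma), or 3.30-fold. The other Wnt5b probe shown above gave a mean of 1.30, with 0.92, 1.66, 0.97 and 1.66 on the 4 arrays: the same direction, with a wider gap between replicates. The Wnt5b call also remained in all 18 settings, with ratios from 1.51 to 1.75.

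Wnt16, a ligand known for its part in cortical bone, had log2 intensities of 10.61, 10.77, 10.65 and 10.82 in unstarved and 11.88, 11.85, 11.87 and 11.92 in starved samples. The starved levels were almost equal, and the groups did not overlap. Its log2 ratios on the 4 arrays were 1.27, 1.08, 1.22 and 1.10, with a mean of 1.17 (SE 0.124, adjusted p = 2.1e-06 by limma), or 2.25-fold.

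Wnt9a, Wnt4, Wnt7a and Wnt10a fell by less than 2-fold, and for Wnt5a, which fell too, only a lower bound can be given. Wnt9a, which acts in joint and skeletal development, gave log2 ratios of -1.05, -0.95, -1.04 and -0.94 on arrays 1 to 4, with a mean of -0.99 (SE 0.124, adjusted p = 1.15e-05). For Wnt4, which drives the conversion of kidney mesenchyme to epithelium, the arrays gave -0.76, -0.62, -0.74 and -0.58, with a mean of -0.67 (adjusted p = 0.000561). Both genes were lower on every array, by amounts that differed little between replicates. A dimmer Wnt9a probe was well above background in 3 unstarved and 0 starved samples and was not tested. Its mean ratio was -0.24.

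Wnt7a, known from limb and reproductive tract patterning, gave -0.77, -0.45, -0.72 and -0.47, with a mean of -0.60 (adjusted p = 0.00174). Wnt10a, a ligand of skin and tooth development, gave -0.65, -0.30, -0.56 and -0.33, with a mean of -0.46 (adjusted p = 0.0115). In both, the fall was larger in replicate 1 than in replicate 2.

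Wnt5a, the prototype of the non-canonical ligands, was well above background on all 4 arrays in unstarved cells and on 0 of 4 in starved cells. Its log2 intensities were 7.21, 7.34, 7.22 and 7.34 in unstarved samples and 6.80, 6.90, 6.87 and 6.72 in starved samples. The arrays gave log2 ratios of -0.40, -0.44, -0.36 and -0.62. Set against the dimmest signals still above background, Wnt5a was at least 1.28-fold lower in starved cells (a bound on normalised log2 means). The fitted ratio was -0.46 (adjusted p = 0.0101 by limma), and the call was lost under median centring and with the replicate as a random block over the 4 arrays. The deposited value table gave -1.15 and Agilent's processed signals -1.36 for the same gene. Of the Wnt5 paralogs, Wnt5b rose, while the fall of Wnt5a, measured only through its unstarved samples, rests on the bound just given.

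**Figure D2:**
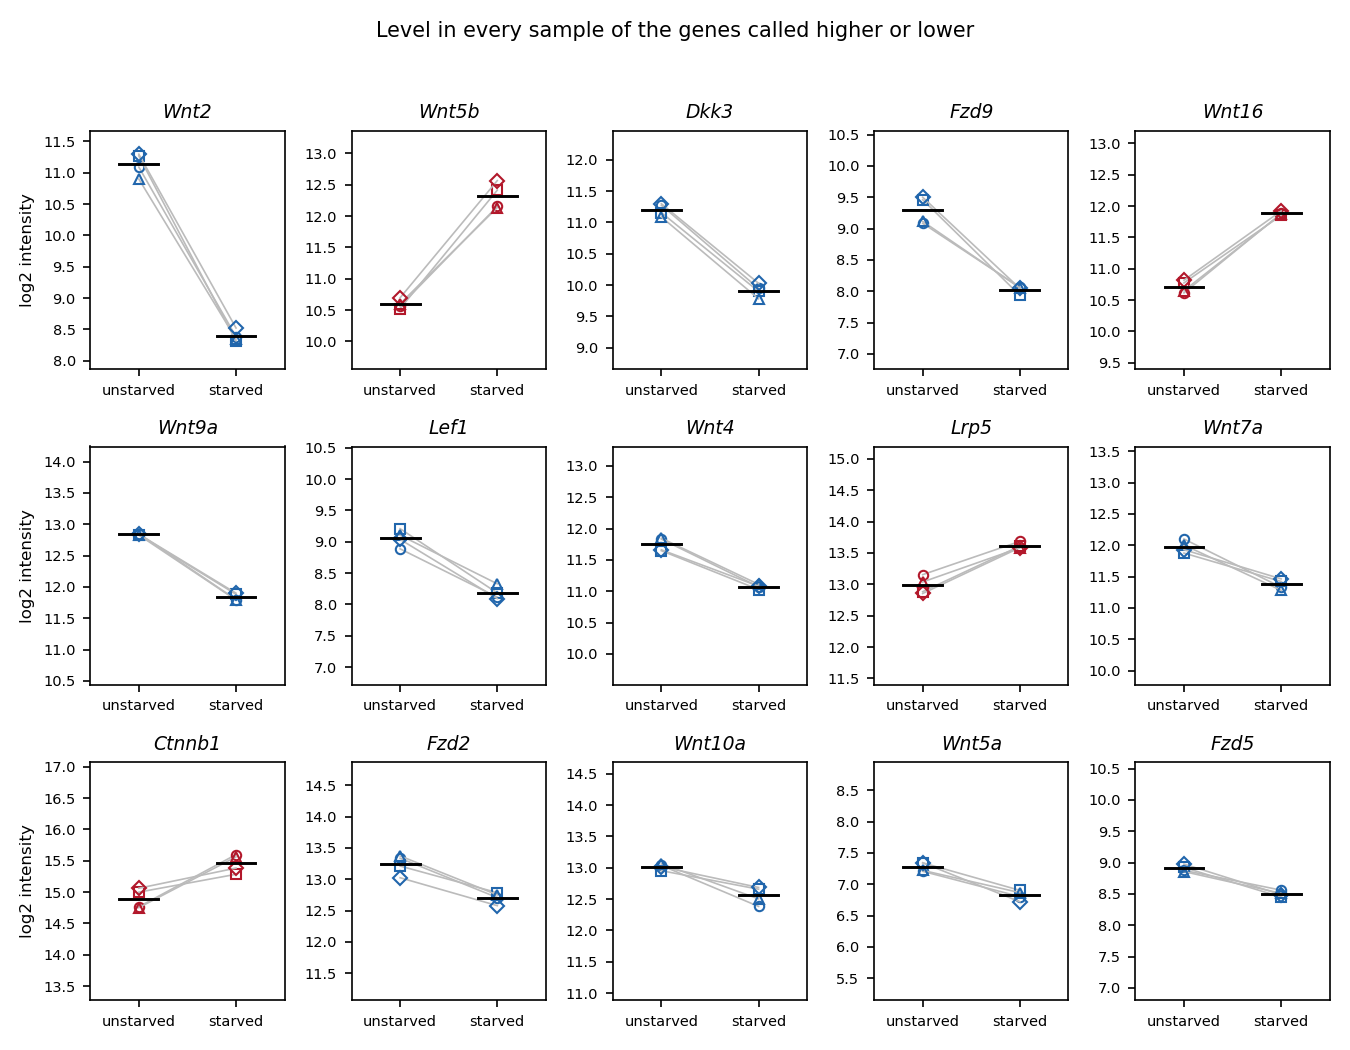
Log2 intensity (y axis, each panel spans the same range of log2 units) of the 15 called genes in the 4 unstarved and 4 starved samples. Circles, squares, triangles and diamonds are arrays 1, 2, 3 and 4, grey lines join the samples of an array, and black bars are group means; panels are in order of the size of the ratio, and heights cannot be set against each other between genes. No starved sample overlaps an unstarved one in any panel.

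The other 4 measured ligands were not called. Wnt11, made at the tips of the branching ureteric bud, had a mean ratio of -0.16, Wnt1 of -0.04 and Wnt6 of -0.03. Wnt7b, the collecting duct ligand required for growth of the medulla, had a mean of 0.12 that joined opposite signs: -0.30 and -0.34 on the arrays of replicate 1, and 0.54 and 0.57 on those of replicate 2. Its replicates differed in dye orientation too, and no direction can be given.

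Not well above background with any probe on any array were Wnt2b, Wnt3, Wnt3a, Wnt8a, Wnt8b and Wnt10b. Wnt9b, the ureteric bud signal that induces nephrons, was above background in 1 unstarved sample only. For these genes the arrays give no ratio, and the paralogs of Wnt2, Wnt9a and Wnt10a are therefore without a value to set beside the falls described above.

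All 10 Frizzled receptors were measured, and 3 were called lower and 0 higher by limma. At an unadjusted p below 0.05 by limma, 5 were lower and 0 higher. The share of all genes at that looser threshold is not given here, and the shares that follow are for adjusted p. Calls in either direction were 30% of the family, near the 31.4% of all measured genes. Called lower were also 30%, against 13.4% of all genes, and called higher 0%, against 18.1%. The median ratio of the Frizzled receptors was -0.17.

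Fzd9, a receptor known from neural and bone tissue, fell the most of the family. Its log2 intensities were 9.08, 9.46, 9.11 and 9.5 in unstarved and 8.06, 7.93, 8.05 and 8.04 in starved samples of arrays 1 to 4. The starved levels were close together, while the unstarved levels were higher in replicate 2 than in replicate 1. The arrays gave log2 ratios of -1.02, -1.53, -1.06 and -1.46, with a mean of -1.27 (SE 0.135, adjusted p = 2.1e-06 by limma), or 2.41-fold lower.

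Fzd2 and Fzd5 fell by smaller amounts. Fzd2 gave -0.63, -0.43, -0.62 and -0.45 on arrays 1 to 4, with a mean of -0.53 (adjusted p = 0.0038), and its other probe had a mean of -0.65. Fzd5 gave -0.32, -0.47, -0.35 and -0.49, with a mean of -0.41 (adjusted p = 0.0197), and its other probe had a mean of -0.33. In both genes all probes pointed the same way on every array.

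Fzd3, a receptor of planar cell polarity, lay just outside the threshold. Its arrays gave -0.28, -0.48, -0.16 and -0.44, with a mean of -0.34 (adjusted p = 0.0507), and its other probe a mean of -0.22. Fzd1, closely related to Fzd2 and Fzd7, had ratios between -0.32 and -0.29 on the 4 arrays, with a mean of -0.30 (adjusted p = 0.0723). Both were below 0 on every array without passing the test.

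The remaining Frizzled genes were within 0.2 log2 units of 0. Fzd4 had a mean ratio of 0.18, Fzd6 of 0.15, Fzd7 of 0.05, Fzd8 of 0.00 and Fzd10 of -0.03. Fzd7 depended on the probe: the brighter probe gave the 0.05 just stated, and the other gave -0.43, with -0.47, -0.37, -0.46 and -0.41 on the 4 arrays. These 2 probes lie at chr1:59430894-59430953 and chr1:59429069-59429128 on mm8, and no direction can be given for the gene as a whole.

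Of the co-receptors Lrp5, Lrp6 and Ror2, only Lrp5 was called. Lrp5, which with Lrp6 carries the canonical signal across the membrane, gave 0.53, 0.73, 0.54 and 0.73 on arrays 1 to 4, with a mean of 0.63 (SE 0.125, adjusted p = 0.000994 by limma), or 1.55-fold higher. Lrp6 had a mean ratio of 0.15, between 0.13 and 0.16 on the 4 arrays, and did not pass the test (adjusted p = 0.394). Ror2, the tyrosine kinase receptor for Wnt5a, had a mean of -0.16 (adjusted p = 0.376). The difference between Lrp5 and Lrp6 was not tested.

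Secreted antagonists were mostly too dim to measure. Sfrp1, Sfrp2, Sfrp4, Dkk1, Dkk4 and Wif1, which bind Wnt proteins or block Lrp5 and Lrp6, were not well above background on any array. Dkk2 was above background in 3 unstarved and 2 starved samples and was not tested. Sfrp5 was measured and had a ratio of -0.07 (adjusted p = 0.694).

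Dkk3, a divergent member of the Dickkopf family that in most assays does not block Lrp5 or Lrp6, was the exception. Its log2 intensities were 11.27, 11.16, 11.09 and 11.30 in unstarved and 9.94, 9.90, 9.78 and 10.03 in starved samples. The groups were more than 1 log2 unit apart, and the arrays gave nearly the same ratio: -1.33, -1.26, -1.31 and -1.27. The mean was -1.29 (SE 0.123, adjusted p = 6.07e-07 by limma), or 2.45-fold lower.

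**Figure D3:**
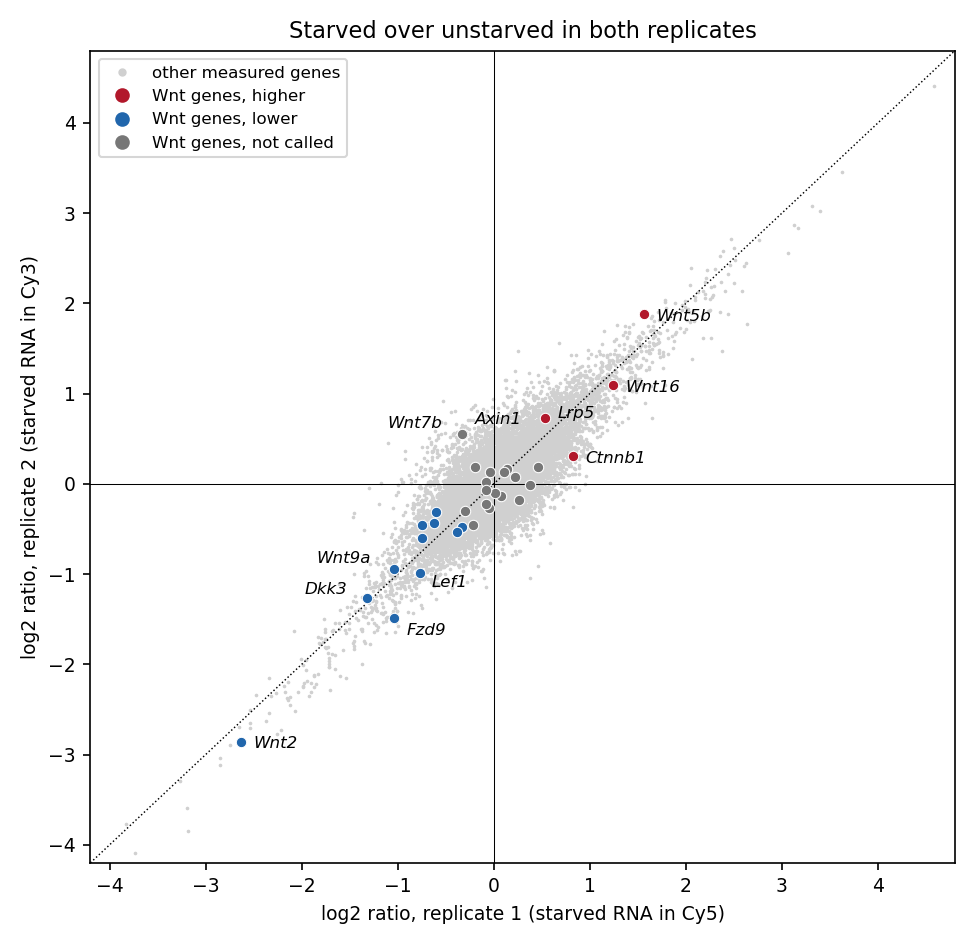
Log2 ratio of starved over unstarved in replicate 1 (x axis) against replicate 2 (y axis), for the 33 measured Wnt pathway genes (coloured) and the other measured genes (light grey); the dotted line marks equal ratios. Dkk3 lies on the line, and Wnt7b and Axin1, nearly on top of each other, lie in the upper left quadrant with opposite signs.

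Inside the cell, Ctnnb1, which encodes beta-catenin, was called higher. Its brightest probe gave 0.83, 0.29, 0.81 and 0.32 on arrays 1 to 4, with a mean of 0.56 (SE 0.139, adjusted p = 0.00515 by limma), or 1.48-fold. The rise was larger in replicate 1, and without that replicate the ratio was 0.30; median centring gave 0.29, with no call. The 2 other probes had means of 0.53 and 0.48. All 3 probes were above 0 on every array.

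The destruction complex genes Axin1 and Apc were not called. Axin1, the scaffold of the complex, had a mean ratio of 0.11 from opposite signs, -0.33 and -0.34 in replicate 1 against 0.56 and 0.55 in replicate 2. Apc, which holds beta-catenin in the complex, had a mean of 0.12 with its brightest probe (adjusted p = 0.505), and 3 other tested probes had means of 0.46, 0.07 and -0.09. A further 2 Apc probes were too dim to test. The tested probes of Apc thus gave different answers, from a value below 0 on every array to 0.41 or more on every array.

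Axin2 and Nkd1, feedback inhibitors that are themselves induced by beta-catenin in many cells, were not well above background on any array. They are common readouts of canonical signalling, and at this sensitivity the arrays give no ratio for either.

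Lef1, a DNA-binding partner of beta-catenin, was the only TCF/LEF member called lower. Its arrays gave -0.77, -1.03, -0.77 and -0.94, with a mean of -0.88 (SE 0.126, adjusted p = 4.99e-05 by limma), or 1.84-fold lower. A dimmer Lef1 probe, whose design position spans 18162 bases of the genome, gave -0.19, -0.51, -0.24 and -0.61 and was above background in 2 of 4 starved samples. Both probes were below 0 on every array, but by different amounts.

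Tcf7, another partner of beta-catenin, had a ratio of 0.32 and lay just outside the threshold (adjusted p = 0.0642). Its other tested probe had a mean of 0.17. Tcf7l2 had 0.04 with its brightest probe, from 0.27 and 0.26 in replicate 1 and -0.17 and -0.18 in replicate 2. The other tested Tcf7l2 probes had means of -0.06, -0.06 and 0.02, with smaller gaps between replicates. Tcf7l1, known mainly as a repressor and outside the rule, was called higher at 0.41 (adjusted p = 0.0179). The TCF/LEF factors therefore did not move together: Lef1 fell and Tcf7l1 rose.

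**Figure D4:**
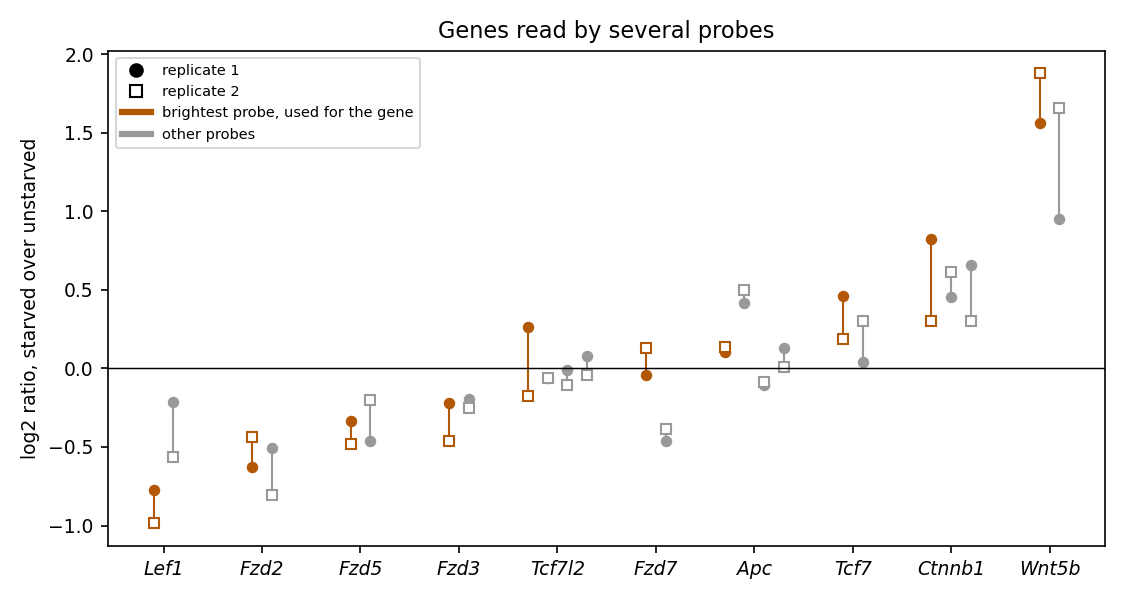
Log2 ratio of starved over unstarved (y axis) for each tested probe of the 10 measured genes with more than 1 (x axis); filled circles are replicate 1, open squares replicate 2, and orange marks the brightest probe, whose value stands for the gene. The probes of Ctnnb1, Fzd2 and Wnt5b share a side of 0, while those of Fzd7 and Apc do not.

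Replicates were set against each other over all members. The median absolute gap between replicates was 0.19 log2 units for the members and 0.17 for all measured genes, and the gap between arrays of the same replicate was 0.02 for the members. In 9 of the 33 members the replicates had opposite signs. Of all measured genes, 74.9% had replicates of 1 sign. With the arrays paired across replicates, or with a term for dye, 13 members were called higher and 16 lower, and between 14104 and 14298 of all 16071 genes were called too.

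Other genes of the pathway were counted in 4 lists, of which only the list of reported targets shares genes with the members (Axin2, Nkd1, Dkk1, Dkk4, Tcf7 and Lef1). The secretion and target lists also share Notum, Lgr5, Rnf43, Znrf3 and Apcdd1, so the calls of Rnf43 and Apcdd1 count in both. Every value given for genes of the 4 lists is a log2 ratio of starved over unstarved. Among genes of Wnt secretion and extracellular modulation, 5 of 14 measured were called higher and 3 lower, with a median of 0.07. In either direction 57.1% of these were called, against 31.4% of all measured genes (18.1% higher and 13.4% lower). Lgr6, a receptor for R-spondins that strengthens Wnt signals, rose by 1.23, and Lgr4 by 0.56, Reck by 0.46 and Rnf43 by 0.40. Adgra2, which with Reck forms a receptor complex for Wnt7 ligands in brain vessels, had -1.23, the membrane-bound Wnt inhibitor Apcdd1 had -1.18, and the glypican Gpc4 had -0.72. Lgr5 and the R-spondins Rspo1, Rspo2 and Rspo4 were not well above background on any array. Rspo3 was above background in at most 1 unstarved and 1 starved sample with any probe and was not tested.

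In the cytoplasmic and nuclear beta-catenin pathway, 7 of 35 measured genes (20.0%) were called higher and 0 lower by limma, with 1 lower at an unadjusted p below 0.05. The share called was below the 31.4% of all measured genes (18.1% higher and 13.4% lower). The share called higher was near that of all genes, and the median was 0.14. No share of all genes at the unadjusted threshold is given here. The corepressor Tle2 rose by 1.19, the Dishevelled adaptors Dvl2 and Dvl1 by 0.70 and 0.65, and the corepressor Tle4 by 0.60. Thus the genes called higher included both adaptors that pass the signal on and corepressors of TCF/LEF factors.

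In the planar cell polarity and non-canonical list, 9 of 27 measured genes were called higher and 2 lower, with a median of 0.08. These calls were 40.7% of the list, against 31.4% of all measured genes (18.1% higher and 13.4% lower). Prickle2, a cytoplasmic planar polarity protein, rose by 1.64, the phospholipase Plcb1 by 1.56, Wdpcp, which acts in planar polarity and cilium formation, by 0.95, and the polarity cadherin Celsr1 by 0.74. Invs, the inversin gene of cystic kidney disease, fell by 0.42 and the kinase Prkca by 0.37.

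Of genes reported as targets of beta-catenin and TCF, 5 of 30 measured were called higher and 11 lower, with a median of -0.20. The share called was 53.3%, against 31.4% of all measured genes (18.1% higher and 13.4% lower). The members Lef1 and Tcf7 are among the 30, and the other 4 that the list shares with the members were not measured. Ccnd1, the cell cycle gene cyclin D1, had -2.52, the prostaglandin synthase Ptgs2 had -2.00, Apcdd1 -1.18 and follistatin Fst -1.07. Ephb2 rose by 0.80, Jun by 0.56, Sox9 by 0.52 and Vegfa by 0.41. Myc had a ratio of 0.01 and Sp5 of -0.02, neither called. Many genes of this list also respond to serum or to the cell cycle, and the part of either in these values was not tested.

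Under median centring the 4 lists kept few calls: 0 in the secretion list, 0 in the cytoplasmic and nuclear list, 2 higher in the planar cell polarity list and 2 lower among reported targets. At that setting the median gap between replicates was 0.74 for all measured genes.

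**Figure D5:**
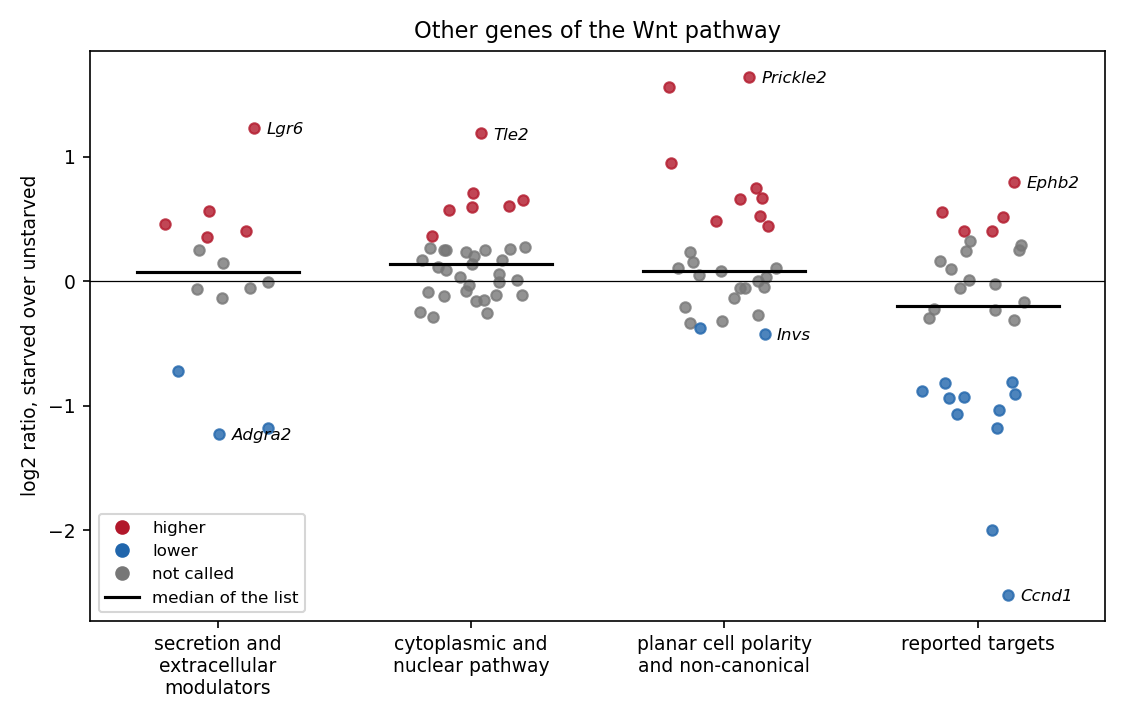
Log2 ratio of starved over unstarved (y axis) for the measured genes of 4 other Wnt pathway lists (x axis). Each point is the mean of a gene over 2 replicates, coloured by its call, black bars are list medians, and sideways scatter is only for legibility; Ccnd1 is lowest at -2.52 and Prickle2 highest at 1.64.

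Promoters were searched for CTTTGAT, the core of the TCF/LEF site, on both strands, in windows from 250 bases before to 50 after the gene start (RefSeq, build GRCm38.p6). Of 33 member genes with a window, 2 (6.06%) held it, against 4.29% of 27025 genes. The matches are shown with the core in capitals.
Wnt5b, chr6:119449440-119449468, minus strand, core at -71: agtaagtctctCTTTGATctgctccctgt
Wnt11, chr7:98835050-98835078, plus strand, core at -51 and on the opposite strand: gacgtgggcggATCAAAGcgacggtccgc
Wnt5b rose in starved cells and Wnt11 was not called. These letters describe the windows only.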

How the data were processed

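The deposited intensity of each spot (mean signal, local background) was extracted with version 9.5.3.1 of Agilent Feature Extraction, as headers and the submitters' processing notes state. A deposited value table holds intensity that the authors scaled by 0.753 to 0.806 of the processed signal, with a lowest value of 15; the reason is not known here. RNA input was 500 ng, per the labels' protocols. Signals were corrected with normexp (offset 50) and normalised by loess within arrays in limma 3.58.1 (R 4.3.3), with control and outlier spots at weight 0. Spots of a probe were averaged, and a gene was its brightest probe among those well above background in all 4 samples of a group. The 2 arrays of a replicate were averaged, which leaves 1 residual degree of freedom, so the error of each gene rests largely on the spread pooled over genes. Levels by channel were scaled between arrays on mean intensity (Aquantile).

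The series text calls the replicates biological and describes a dye swap within each pair; the labels give 1 dye orientation per replicate and were followed. Same-numbered samples deviated from their group means with a correlation of -0.297, and they carry opposite dyes, so the within-array ratio, which the series text states, is the source of the pairing. The members and lists were chosen with earlier results of these data known. Ratios on each array are given for members called with at least 2-fold change, members with a bound and the next 10 by size; of other lists, up to 4 genes per direction with the largest called ratio, and Axin2, Nkd1, Lgr5, Sp5, Myc and Ccnd1. The fit was tested on simulated data, where the weight given to the pooled spread varied widely between draws, so the rate of false calls behind every adjusted p here is uncertain. Alternatives changed normalisation, background, signal source, filter, probe choice, array pairing, dye, replicate block, prior and arrays left out.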

Additional observations from a re-analysis of the deposited data

Results flagged for a closer look

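In 2 of 66 groups of 4 samples, 1 sample stood far from the other 3, measured as its gap to the nearest sample over the range of the group; chance flags about 1 in 20 such groups of independent samples, but here each group is 2 dishes hybridised on 2 arrays each, so that rate need not hold. For Fzd9 in starved samples this share was 0.876, since array 2 gave a log2 level of 7.93 and the others 8.04 to 8.06. For Fzd10 in starved samples it was 0.896, since array 3 gave 7.54 and the others 7.30 to 7.32.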

How the results depend on the processing

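Wnt2 and Wnt5b kept their calls in all 18 settings that give a test. The other 13 called members lost theirs under median centring, and Wnt5a also with the replicate block as a random effect over the 4 arrays (5360 genes, 4 members higher, 11 lower); no member reversed. With no replicate block, 5860 genes, 5 members higher and 12 lower were called. Median centring called 249 genes (1092 at an unadjusted p below 0.05), 1 member higher and 1 lower, and its gap between replicates was 0.74 against 0.17. Array pairs 1 with 2 and 1 with 4 called 14298 and 14104 genes, and a dye term 14202, each with 13 members higher and 16 lower. Only the gap between arrays of the same replicate serves as error at these settings. Fzd3 passed the threshold in 10 settings, among them both array pairings and the dye term, where most genes were called and a pass carries little weight. Spread here is the SD of the 2 replicate medians of a list, and the replicates also differ in dye orientation. Medians not given above were 0.15 for co-receptors, -0.68 for the 2 antagonists measured and 0.12 for the destruction complex. The list medians moved by more than this spread, before rounding, as follows. Agilent's processed signals and the deposited value table each gave -0.41 for Wnt ligands, -0.20 for Frizzled receptors, 0.13 for co-receptors, -0.75 for antagonists and 0.13 for the cytoplasmic and nuclear list. Without a filter the Wnt ligands had -0.045, the antagonists -0.073, the secretion list -0.0020, the cytoplasmic list 0.11 and the targets -0.052; the filter in both groups gave the ligands -0.16. Median centring gave -0.20 for Frizzled receptors, -0.0087 for secretion, -0.031 for the cytoplasmic list, 0.045 for planar polarity and -0.32 for targets. Offset 10 gave -0.18 for Frizzled receptors, -0.72 for antagonists and 0.14 for the cytoplasmic list. Means over probes gave -0.24, 0.11 and 0.073 for Frizzled receptors, secretion and the cytoplasmic list. Leaving out an array or replicate gave -0.35 to -0.29 for ligands, -0.22 to -0.16 for Frizzled receptors, -0.71 to -0.66 for antagonists, 0.10 to 0.30 for the destruction complex, 0.067 to 0.13 for secretion, 0.11 to 0.14 for the cytoplasmic list and 0.042 to 0.092 for planar polarity. The causes were not tested. Signal over background leaves 16 members without a ratio.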

Other observations

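Several genes of collecting duct identity and transport, which belong to no Wnt list, also differed between the groups. Of the 22 measured collecting duct and epithelial markers, 8 were called higher and 4 lower, with a median ratio of -0.05. That was 54.5% called, against 31.4% of all measured genes (18.1% higher and 13.4% lower). Cldn8, a tight junction protein of the collecting duct, had a ratio of 4.49, Scnn1g, a subunit of the epithelial sodium channel, 2.30, and Lhx1 1.14. The vasopressin receptor gene Avpr2 had 1.11, but was well above background in only 1 of 4 unstarved samples against 4 of 4 starved ones. Gata2 was above background in no starved sample and was at least 2.10-fold lower there. The keratin genes Krt7, Krt19 and Krt8 had -1.07, -0.90 and -0.64. The water channel genes Aqp2 and Aqp3 had -0.19 and -0.21 and were not called.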
